A study of Mus musculus with 4 samples.

Results

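Thymospheres are free-floating balls of cells that grow when a dissociated thymus is kept in dishes to which cells do not adhere. The messenger RNA of 52 genes that copy the genome and divide the cell is described here in spheres grown from adult thymus, of C57Bl6/N mice aged 5 to 6 weeks, and in spheres grown from embryonic thymus at day 14.5 of development, from the same strain. Both kinds of sphere were cultured for 7 days with B27 supplement, hydrocortisone, insulin, EGF and bFGF, and were supplied again with medium on day 5. Each group had 2 samples, and 25 ng of RNA from each was labelled with the dye Cy3 and hybridised to an Agilent array of its own, all 4 on 1 slide. The 52 genes were a list of names, 22 of DNA replication, 7 of the step into S phase (the G1/S regulators) and 23 of mitosis, out of 21154 genes that could be named on the array through RefSeq accessions. They were not chosen by a threshold on their signal. All 52 had at least 1 probe, and together they had 68. Replicates of both a biological and a technical kind are named in the study's design without a key to the arrays, so the spread behind every p-value is that of these samples and may be technical. The spheres were lysed whole, and in such bulk RNA fewer dividing cells and less RNA per dividing cell cannot be told apart.

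Before a cell can copy its DNA, cyclin D with Cdk4 and then cyclin E with Cdk2 inactivate the retinoblastoma protein, which releases E2F transcription factors. E2F switches on the replication genes: the MCM helicase that unwinds the template, the polymerases and clamps that copy it, and the enzymes that supply nucleotides. Genes of G2 and mitosis are switched on later, through CHR elements and CCAAT boxes bound by MuvB complexes with B-MYB and FOXM1 and by NF-Y, and their products condense, align and separate the chromosomes. Thymic epithelial cells divide fast in the embryo and more slowly in the adult, and immature thymocytes are among the fastest dividing cells of the body.

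Promoter letters are given first because E2F and CHR elements are known switches of these lists. Windows from 250 bases before to 50 bases after the start were held in the RefSeq promoter table (GRCm38.p6) for 42 of the 52 genes. The table had none for Mcm4, Gins1, Gins2, Ccnd1, Ccnd2, Ccna2, Foxm1, Aurkb, Kif20a and Tpx2. E2F-type letters (TTTGGCGC, TTTCCCGC, TTTGCCGC or TTTCGCGC) stood in the window of 10 of 19 replication genes (52.6%), 1 of 5 G1/S regulators (20%) and 1 of 18 mitotic genes (5.56%), against 2.60% of 27025 genes in the table. CHR letters (TTTGAA) stood in 2 of 19 replication genes (10.5%), in 0 of 5 G1/S regulators and in 13 of 18 mitotic genes (72.2%), against 20.2% of all genes. The CCAAT box stood in 13 of 19 (68.4%), 2 of 5 (40%) and 16 of 18 (88.9%), against 41.1% of all. CHR letters and a CCAAT box stood in the same window for 13 of 18 mitotic genes (72.2%), against 7.97% of all genes. These were all 13 mitotic genes with CHR letters, where 2155 of all 5466 genes with CHR letters held both in the same window. Both strands were searched, matches could overlap, and a gene with several starts counted if any window matched. A match is a description of letters, not a binding site or a cause. The 200 bases before the start follow for 8 genes, 5′ to 3′ along the gene, with every match in capitals (the E2F-type, CHR or CCAAT letters just named, or their reverse complements). Mcm5, Mcm6 and Pola1 are shown for their E2F-type letters, and Rrm1 because it has none although it lies among the replication genes with the greatest differences in these arrays. Top2a, Ccnb2, Cdk1 and Cdc20 are shown for CHR letters together with CCAAT boxes, and Cdk1 also holds an E2F-type match.
Mcm5: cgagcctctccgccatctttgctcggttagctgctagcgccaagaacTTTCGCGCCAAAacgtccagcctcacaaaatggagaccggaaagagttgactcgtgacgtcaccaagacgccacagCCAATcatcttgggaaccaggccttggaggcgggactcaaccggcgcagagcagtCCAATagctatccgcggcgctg
Mcm6: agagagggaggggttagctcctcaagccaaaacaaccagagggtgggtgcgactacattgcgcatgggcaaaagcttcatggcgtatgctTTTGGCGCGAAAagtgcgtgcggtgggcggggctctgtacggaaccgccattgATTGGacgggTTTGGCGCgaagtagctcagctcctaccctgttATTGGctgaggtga
Pola1: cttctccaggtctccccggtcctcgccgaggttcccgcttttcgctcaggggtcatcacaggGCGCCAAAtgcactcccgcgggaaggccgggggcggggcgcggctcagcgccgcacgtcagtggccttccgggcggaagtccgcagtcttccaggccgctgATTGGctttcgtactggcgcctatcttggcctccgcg
Rrm1: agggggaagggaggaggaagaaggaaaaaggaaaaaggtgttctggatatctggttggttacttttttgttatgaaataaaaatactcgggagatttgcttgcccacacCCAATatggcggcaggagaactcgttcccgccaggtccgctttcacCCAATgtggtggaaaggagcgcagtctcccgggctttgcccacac
Top2a: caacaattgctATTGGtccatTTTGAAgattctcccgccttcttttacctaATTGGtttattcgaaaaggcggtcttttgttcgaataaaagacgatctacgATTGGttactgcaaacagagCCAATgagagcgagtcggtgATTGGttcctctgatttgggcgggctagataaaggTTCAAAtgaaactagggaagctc
Ccnb2: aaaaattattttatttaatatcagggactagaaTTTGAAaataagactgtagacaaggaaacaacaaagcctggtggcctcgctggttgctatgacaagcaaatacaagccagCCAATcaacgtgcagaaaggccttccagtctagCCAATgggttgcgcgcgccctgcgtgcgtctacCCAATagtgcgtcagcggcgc
Cdk1: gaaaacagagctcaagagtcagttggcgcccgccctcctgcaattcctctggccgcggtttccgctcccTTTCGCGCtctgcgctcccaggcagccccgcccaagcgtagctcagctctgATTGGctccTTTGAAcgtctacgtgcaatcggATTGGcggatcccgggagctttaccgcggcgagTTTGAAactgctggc
Cdc20: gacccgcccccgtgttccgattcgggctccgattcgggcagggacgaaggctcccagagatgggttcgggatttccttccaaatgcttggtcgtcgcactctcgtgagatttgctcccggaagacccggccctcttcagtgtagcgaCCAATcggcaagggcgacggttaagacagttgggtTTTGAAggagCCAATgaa
These stretches lie in GRCm38.p6 at chr8:75109309-75109508 (plus strand) for Mcm5, chr1:128359706-128359905 (minus strand) for Mcm6, chrX:93632156-93632355 (minus strand) for Pola1 and chr7:102441495-102441694 (plus strand) for Rrm1. Top2a lies at chr11:99024190-99024389 (minus strand), Ccnb2 at chr9:70421555-70421754 (minus strand), Cdk1 at chr10:69352913-69353112 (minus strand) and Cdc20 at chr4:118437344-118437543 (minus strand). The letters are of the reference genome and not of these samples.

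**Figure D1:**
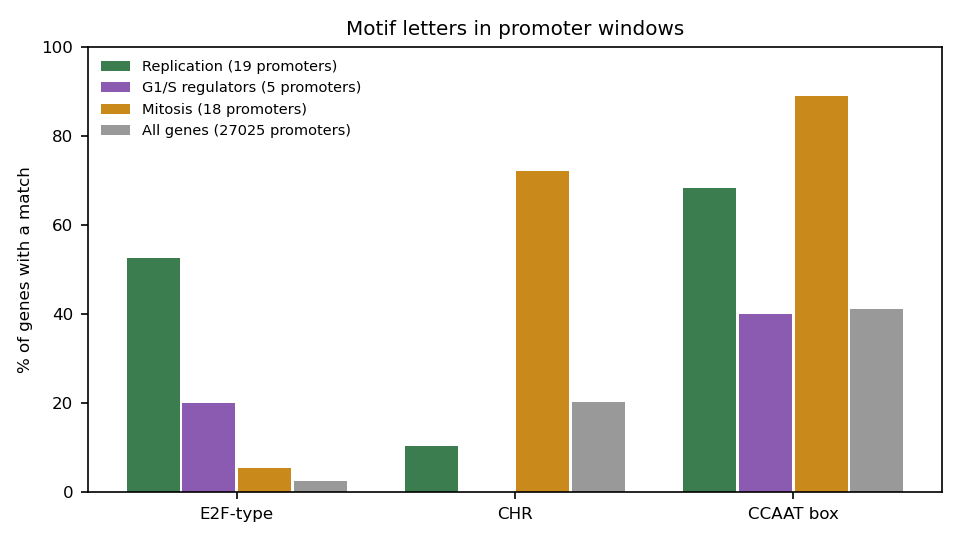
Percentage of genes (vertical axis) whose promoter window holds E2F-type, CHR or CCAAT letters, for 19 replication genes, 5 G1/S regulators, 18 mitotic genes and all 27025 genes of the promoter table. The replication bar is the highest for E2F-type letters (52.6%), and the mitotic bar for CHR letters (72.2%) and for the CCAAT box (88.9%).

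The arrays differed in how many probes they detected. Spots well above background made up 71.6% and 49.6% of the spots for adult spheres and 48.3% and 35.7% for embryonic spheres, and adult array 2 had 2756 spots that the scanner software marked as outliers, against 95 to 185 on the other arrays. Among 1507 probes for the receptors of smell, pheromones, taste and trace amines, 51.4% and 23.2% exceeded background with adult RNA and 6.10% and 2.26% with embryonic RNA. Array position on the slide and group cannot be told apart, and having only 4 arrays limits the precision. All 7 listed thymic epithelial markers were above background on at least 1 array, and their summed signal was 51.5 and 33.3 times the array's 75th percentile in adult spheres and 144 and 270 times in embryonic spheres. Foxn1, Krt5 and Krt8, 3 of 6 epithelial markers tested, passed the test as lower in adult spheres and none passed as higher. The sum over 6 fibroblast markers was 369 and 372 in adult spheres and 665 and 398 in embryonic spheres. Over 8 T-lineage markers it was 8.08 and 7.61 in adult spheres and 9.82 and 11.7 in embryonic spheres, and over 6 myeloid markers 77.8 and 103 in adult and 120 and 108 in embryonic spheres. Over 4 endothelial markers it was 12.1 and 16 in adult and 15.9 and 25.7 in embryonic spheres. Of 6 myeloid markers tested, Csf1r, Cd68 and Lyz2 passed as lower in adult spheres and none as higher. Of 5 T-lineage markers tested, Cd3g and Ptcra passed as higher in adult spheres and 0 as lower. On the adult arrays 8 and 5 of the 8 listed T-lineage markers were above background, against 3 and 3 on the embryonic arrays. Of the other lists, Pdgfra and Lum passed as lower and Thy1 and Cdh5 as higher. The epithelial, fibroblast and myeloid sums were thus lower on both adult arrays than on both embryonic arrays. So was the T-lineage sum, which includes undetected probes and ran against the T-lineage markers that passed. The endothelial sums overlapped. Many of the genes described next, and the median of all genes tested (-0.79), were likewise lower in adult spheres. The part of these cell types in those results was not tested.

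Most replication genes and G1/S regulators were lower in adult than in embryonic spheres, while most mitotic genes did not pass the test. Signals are log2 values relative to the 75th percentile of their array, and each difference is adult minus embryonic. Of the 52 genes, 43 were detected well enough to be tested, meaning that in at least 1 group both arrays read the probe well above background. Of these 43, 21 passed limma's test as lower in adult spheres (adjusted p under 0.05) and 0 as higher, and at an unadjusted p under 0.05 27 were lower and 0 higher. Over the whole array, 13667 genes were tested, of which 36.2% passed as lower and 17.5% as higher, 53.7% in all. Where the tested probe was above background on all 4 arrays, 4207 of 9602 genes passed as lower, with a median of -0.97. For the members this was 18 of 36, with a median of -1.27. By list, 14 of 19 replication genes were lower (73.7%), 5 of 6 G1/S regulators (83.3%) and 2 of 18 mitotic genes (11.1%). The median difference was -1.46 for the replication genes, -1.66 for the G1/S regulators and -0.86 for the mitotic genes, beside -0.79 for all genes tested. The median gene thus stood at -0.79 itself, and each member can be read against that shift. After the median of the genes tested was set to 0 on every array, 6 members remained called lower, where 7.66% of all genes were called lower and 20.3% higher. These were Pola1, Uhrf1 and Rrm1 among the replication genes and Ccnd1, Ccnd2 and Ccnd3 among the G1/S regulators, and 0 mitotic genes, of which 1 had an unadjusted p under 0.05. Under that centring the median was -0.81 for the replication genes, lower still for the G1/S regulators and -0.20 for the mitotic genes, against -0.14 for all genes.

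**Figure D2:**
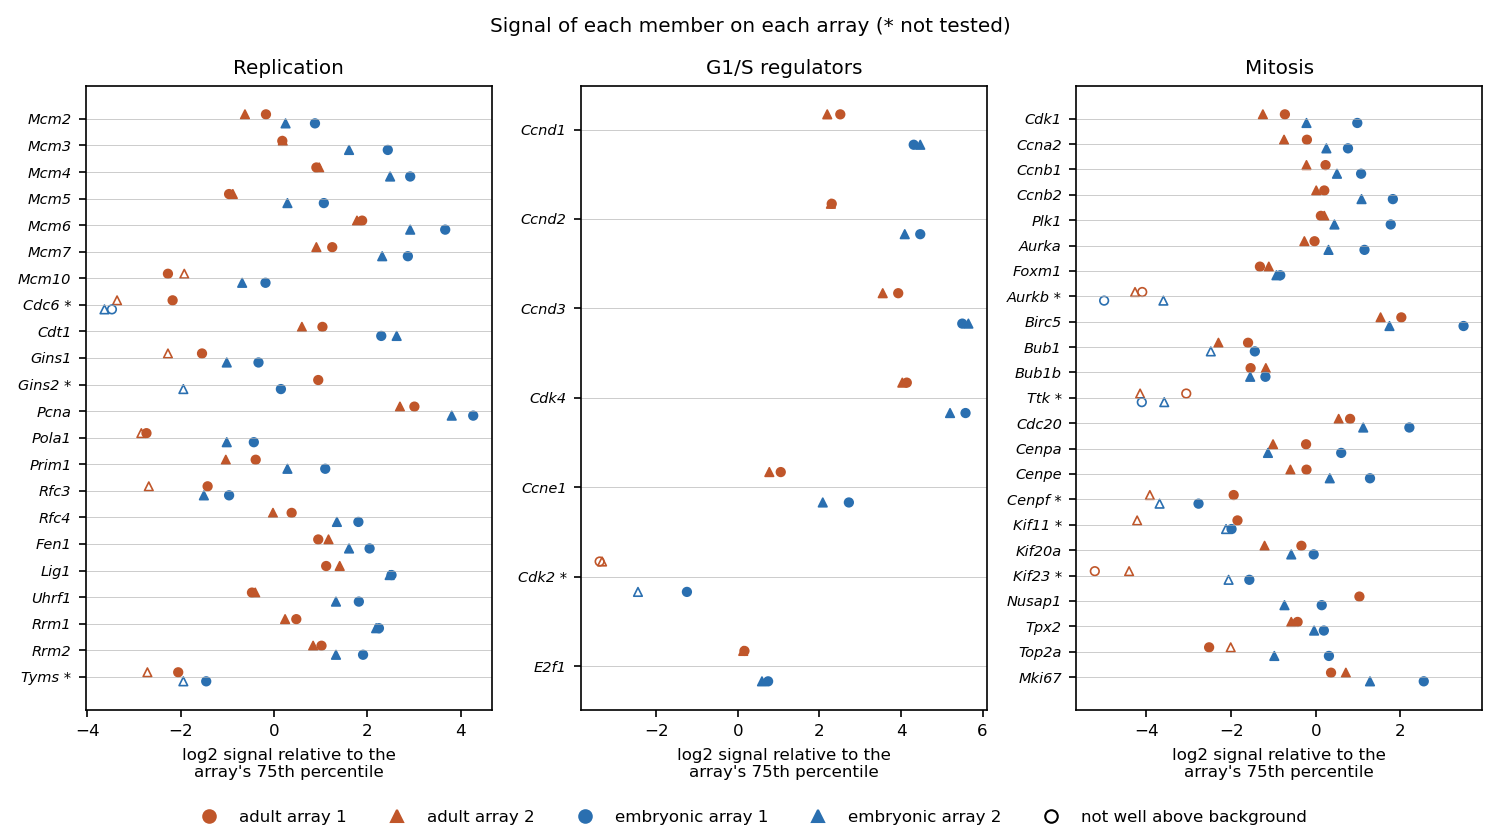
Signal of each of the 52 genes on each array (horizontal axis, log2 relative to the array's 75th percentile), adult arrays in orange above embryonic arrays in blue. Circles are array 1 and triangles array 2 of a group, open symbols were not well above background, an asterisk marks the 9 genes not tested, and Gins2 and Nusap1 lack a value on adult array 2. In the replication and G1/S panels the adult symbols of nearly all tested genes lie left of the embryonic ones, and in the mitotic panel embryonic array 1 lies right of embryonic array 2 for every tested gene.

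Licensing loads the MCM helicase onto origins, and 7 of its 9 tested genes were lower in adult spheres, with a median difference of -1.60. Mcm3, a helicase subunit, had signals of 0.18 and 0.19 in adult spheres, against 2.44 and 1.61 in embryonic spheres. Both adult arrays lay below both embryonic arrays, as for 61.5% of 13405 genes measured on all 4 arrays. The difference of -1.84 (SE 0.39, adjusted p = 0.0158) is a 3.58-fold lower signal. Mcm2, another subunit of the same ring, had -0.17 and -0.62 in adult spheres and 0.88 and 0.25 in embryonic spheres. Its groups did not overlap either, but its difference of -0.96 did not pass (adjusted p = 0.0766, 95% interval -1.90 to -0.01), although it passed in 5 of 16 alternatives. The other ring subunits passed, Mcm4 at -1.77, Mcm5 at -1.60, Mcm7 at -1.51 and Mcm6 at -1.46. Cdt1, which brings the helicase to the origin, was lower by a difference of -1.64, and Mcm10, which helps to start the helicase, by -1.66. Gins1, a subunit of the active helicase, stood at -1.23 and did not pass (adjusted p = 0.0532, 95% interval -2.29 to -0.18). On adult array 2, Mcm10 and Gins1 were not well above background. With normexp background correction Mcm10 stood at -0.67 and did not pass limma's test (adjusted p = 0.12). Cdc6, the loader that works with Cdt1, and Gins2 were not tested. Cdc6 was above background on adult array 1 alone, where it had -2.17, and Gins2 on adult array 1 at 0.95 and embryonic array 1 at 0.15.

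At the fork itself, 6 of 8 tested genes were lower in adult spheres, with a median difference of -1.32. Pola1, the catalytic subunit of the polymerase that lays down primers together with Prim1, had -2.73 and -2.84 in adult spheres, against -0.43 and -1.01 in embryonic spheres. The groups were apart and the difference was -2.07 (SE 0.35, adjusted p = 0.0108). Its adult array 2 value was not well above background, so the size is uncertain, and with normexp background correction Pola1 stood at -0.64 and did not pass (adjusted p = 0.12). Uhrf1, which reads hemimethylated DNA behind the fork and brings in the methyltransferase Dnmt1, had -0.47 and -0.40 in adult and 1.82 and 1.33 in embryonic spheres. Its difference was -2.01 (SE 0.33, adjusted p = 0.0105), a 4.02-fold lower signal. A second Uhrf1 probe, for transcript NM_001111079, went the other way with a difference of 1.20 and was above background on neither embryonic array. With the mean of both probes Uhrf1 no longer passed (difference -0.41, adjusted p = 0.291). Pcna, the sliding clamp that holds polymerases to DNA, had 3.01 and 2.70 in adult spheres and 4.27 and 3.81 in embryonic spheres. Its adult values were the lower ones on every array, with a difference of -1.19 (SE 0.34, adjusted p = 0.0335) that is -0.39 relative to the median of all genes and no longer passed after centring (adjusted p = 0.258). Prim1 and the clamp loader subunit Rfc4 were both lower at -1.40, and Lig1, the ligase that joins Okazaki fragments, at -1.24. Fen1, the nuclease that trims the flaps of those fragments, stood at -0.77 (95% interval -1.60 to 0.06) and the clamp loader subunit Rfc3 at -0.82 (95% interval -2.09 to 0.46), and neither passed. Among the replication genes tested, Rfc3 alone had overlapping groups, while 84.1% of all 13405 genes measured on all 4 arrays did not overlap.

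Ribonucleotide reductase makes the deoxynucleotides, and its subunits did not give the same call. Rrm1, the large subunit, had 0.48 and 0.24 in adult spheres, against 2.25 and 2.19 in embryonic spheres. The arrays of each group lay close together, and the difference was -1.86 (SE 0.31, adjusted p = 0.0104), a 3.63-fold lower signal. Rrm2, the small subunit, had 1.02 and 0.84 in adult spheres and 1.91 and 1.33 in embryonic spheres. Its groups did not overlap, but its difference of -0.69 did not pass (adjusted p = 0.139, 95% interval -1.56 to 0.19), and the difference between the subunits was not tested. Tyms, which makes thymidylate, was well above background on array 1 of each group alone and was not tested.

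**Figure D3:**
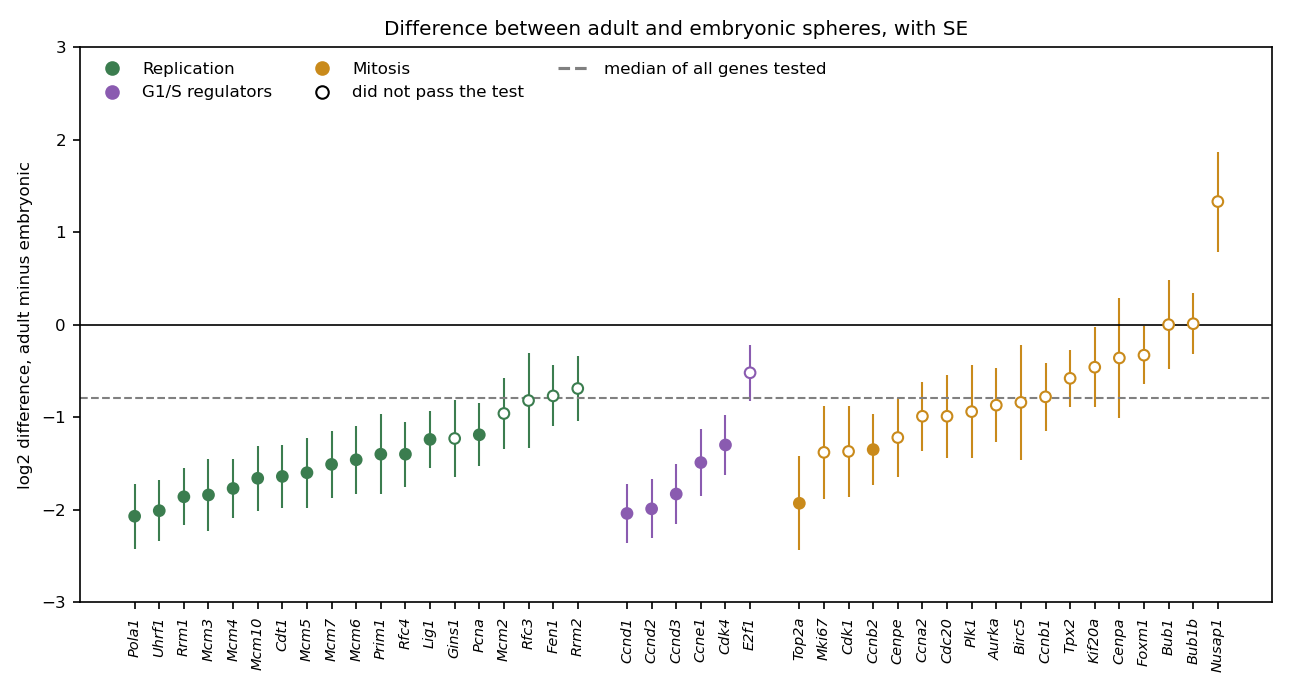
Difference between adult and embryonic spheres for the 43 tested genes (vertical axis, log2 signal, adult minus embryonic), ordered within each list. Bars are the standard error of limma's fit, filled points passed the test, and the dashed line is the median of all genes tested at -0.79. All 19 replication genes and all 6 G1/S regulators lie below 0, and the mitotic genes spread from -1.93 for Top2a to 1.33 for Nusap1.

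The D-type cyclins, which answer to growth factors and start the passage through G1, were all lower in adult spheres. Ccnd1 had 2.51 and 2.19 in adult spheres, against 4.31 and 4.47 in embryonic spheres. The gap between the groups was wide beside the gap within them, and the difference was -2.04 (SE 0.32, adjusted p = 0.00955). Ccnd2 had 2.30 and 2.28 in adult and 4.47 and 4.09 in embryonic spheres, a difference of -1.99 (SE 0.32, adjusted p = 0.01). Ccnd3 had 3.93 and 3.55 in adult and 5.50 and 5.65 in embryonic spheres, a difference of -1.83 (SE 0.32, adjusted p = 0.0115). None of the 3 cyclins had overlapping groups, as was common on these arrays (84.1% of 13405 genes), and a second Ccnd3 probe gave -1.60. Their folds were 4.12, 3.97 and 3.57, lower in adult spheres. Cdk4, the kinase they activate, was lower by a difference of -1.30 (SE 0.32, adjusted p = 0.0227), and all 3 of its probes pointed that way, at -1.48, -1.30 and -1.11.

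Further along, Ccne1, the cyclin that drives entry into S phase, had 1.05 and 0.77 in adult spheres and 2.72 and 2.08 in embryonic spheres. Its groups were apart, with a difference of -1.49 (SE 0.36, adjusted p = 0.0222), but after centring it no longer passed (adjusted p = 0.135). E2f1, the activating member of the E2F family on the list, had 0.16 and 0.13 in adult spheres and 0.74 and 0.59 in embryonic spheres. Its groups did not overlap, yet its difference of -0.52 lay on the other side of the median of all genes and did not pass (adjusted p = 0.183, 95% interval -1.27 to 0.23). Cdk2, the partner of cyclin E, was above background on embryonic array 1 alone and was not tested.

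Among the genes that carry a cell into mitosis, 1 of 7 passed the test. Ccnb2, a B-type cyclin that binds Cdk1, had 0.20 and 0.01 in adult spheres, against 1.82 and 1.08 in embryonic spheres. Its groups did not overlap and its difference was -1.35 (SE 0.38, adjusted p = 0.0309). Cdk1, the kinase of mitosis, had -0.73 and -1.25 in adult spheres and 0.98 and -0.22 in embryonic spheres. Here the embryonic arrays lay 1.20 apart, and the difference of -1.37 did not pass (SE 0.49, adjusted p = 0.0607, 95% interval -2.60 to -0.14). It passed as lower in 7 of 16 alternatives. A second Cdk1 probe stood at 2.44 in the opposite direction and was above background on neither embryonic array, and the mean of the tested probes gave 0.53. Ccnb1, the other B-type cyclin, had 0.23 and -0.22 in adult spheres and 1.07 and 0.50 in embryonic spheres. The groups were apart, and the difference of -0.78 did not pass (adjusted p = 0.118, 95% interval -1.70 to 0.14), while another of its tested probes stood at 0.72. Ccna2, cyclin A of S phase and mitosis, stood at -0.99, the kinases Plk1 and Aurka at -0.94 and -0.87, and the transcription factor Foxm1 at -0.33, and none of these passed. In all, 9 members had several tested probes, and in 4 of them (Ccnb1, Cdk1, Tpx2 and Uhrf1) the probes differed in direction.

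Of the genes for proteins that compact the chromosome or coat it in mitosis, Top2a passed and Mki67 did not. Top2a, the topoisomerase that untangles sister chromosomes, had -2.52 and -2.01 in adult spheres, against 0.31 and -0.98 in embryonic spheres. The groups did not overlap, and the difference was -1.93 (SE 0.51, adjusted p = 0.0275). Its adult array 2 value was not well above background, and with normexp background correction Top2a stood at -0.74 and did not pass (adjusted p = 0.112). Mki67, which coats mitotic chromosomes and is the usual marker of dividing cells, had 0.36 and 0.71 in adult spheres and 2.55 and 1.28 in embryonic spheres. Its adult values were again the lower ones, but the difference of -1.38 did not pass (SE 0.50, adjusted p = 0.0606, 95% interval -2.61 to -0.14), and a second probe gave -1.55. It passed as lower in 4 of 16 alternatives.

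No gene of the kinetochore, the spindle checkpoint, the spindle or cytokinesis passed the test, with 6 tested in the first 2 roles and 3 in the others, and Cenpe alone had an unadjusted p under 0.05 in limma. The checkpoint kinase Bub1 stood at 0.00 (95% interval -1.20 to 1.21) and its relative Bub1b at 0.01 (95% interval -0.83 to 0.84), so their intervals still hold changes of more than the median shift in either direction. Cenpe, a motor at the kinetochore, stood at -1.22, Cdc20, which activates the anaphase-promoting complex, at -0.99, the survivin gene Birc5 at -0.84, and Cenpa, the histone H3 variant of the centromere, at -0.36. Of the spindle genes, Tpx2 stood at -0.58 and the cytokinesis motor gene Kif20a at -0.46. Nusap1, which bundles spindle microtubules, was the tested gene that lay furthest above 0. It had 1.03 on adult array 1, no usable spot on adult array 2, and 0.14 and -0.74 in embryonic spheres. Its difference of 1.33 rests on a single adult value and did not pass (adjusted p = 0.0941, 95% interval -0.10 to 2.76), although it passed as higher in 3 of 14 alternatives. Aurkb and Ttk, kinases of chromosome alignment, were above background on no array. Cenpf and Kif11 were above background on array 1 of each group, and Kif23 on embryonic array 1 alone, and none of the 3 was tested.

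The embryonic arrays differed from each other in these genes. Over all genes measured on all 4 arrays, embryonic array 1 minus embryonic array 2 had a median of -0.09, and 43.6% of genes were higher on array 1. The mitotic genes had a median of 0.96 and were higher on array 1 in 17 of 17 cases. Birc5 differed by 1.75, Cenpa by 1.74, Plk1 by 1.33, Top2a by 1.29 and Mki67 by 1.27. The replication genes had a median of 0.54, with 18 of 19 higher on array 1, and the G1/S regulators 0.27, with 4 of 6. Among the genes above background on all 4 arrays the medians were 0.85 for mitosis and 0.49 for replication, against -0.02 for all such genes. Between the adult arrays the medians were 0.19 for all genes, 0.19 for replication, 0.19 for G1/S and 0.27 for mitosis. The replicates have no known order, so no meaning is read from which of the 2 arrays was the higher, and with 2 arrays no test was made. The median standard error was 0.44 for the mitotic genes, 0.35 for the replication genes, 0.32 for the G1/S regulators and 0.36 for all genes. Without embryonic array 2, 11 of 18 mitotic genes passed as lower in adult spheres, against 37.1% of all genes. Without embryonic array 1, 1 of 18 passed as lower and 1 as higher, against 35.3% and 19.1% of all genes. The adult and embryonic values of a gene did not overlap, with adult lower, in 18 of 19 replication genes, 6 of 6 G1/S regulators and 12 of 17 mitotic genes, against 61.5% of 13405 genes. In either direction 84.1% of those genes did not overlap.

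**Figure D4:**
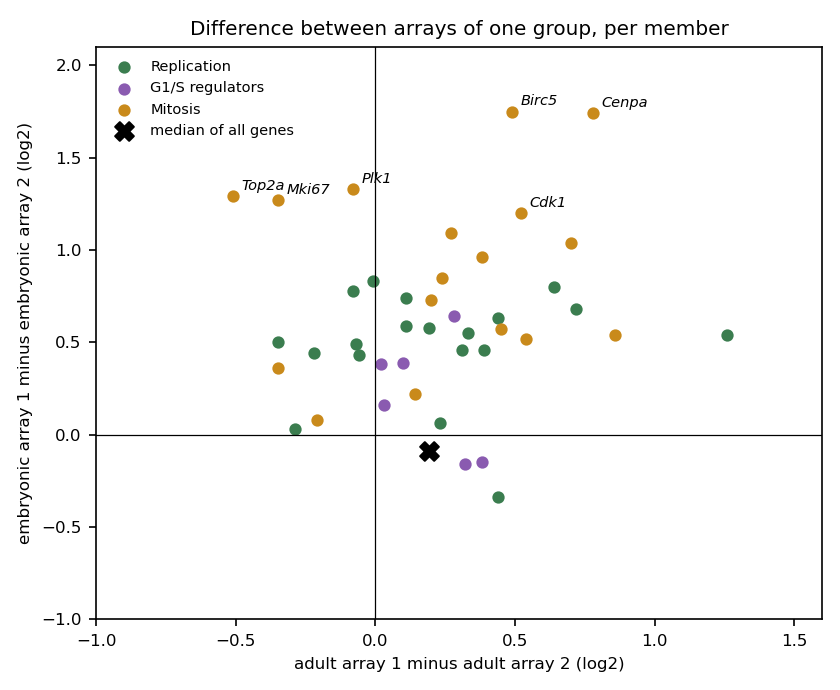
Difference between the arrays of a group for each tested gene measured on all 4 arrays, adult array 1 minus 2 on the horizontal axis and embryonic array 1 minus 2 on the vertical axis (both log2). The cross is the median of all genes, at 0.19 and -0.09, and all 17 mitotic genes lie above 0 on the vertical axis, with Birc5 and Cenpa at the top.

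Other genes of the same pathways, not among the 52, were called in shares near those of the whole array in replication and mitosis. Of 34 tested replication genes from a list of 44, 11 were lower (32.4%) and 6 higher (17.6%) in adult spheres, against 36.2% and 17.5% of all genes, and their median was -0.88 against -0.79. Topbp1, a scaffold at starting forks, was lower at -2.12, Mcmbp, which binds the MCM ring, at -1.58, and the large clamp loader subunit Rfc1 at -1.56. A further Mcmbp probe pointed the other way, with 0.22 on adult array 1, no usable spot on adult array 2, and -0.36 and -0.24 in embryonic spheres. Hells, a chromatin remodeller, was higher in adult spheres by at least 4.94-fold, Clspn, an adaptor of the replication checkpoint, at least 2.80-fold and Cdc7, the kinase that fires origins, at least 2.35-fold. Each of the 3 was detected in both adult samples and in neither embryonic one, so these folds are lower bounds under the reported processing. They set the adult mean against the higher of the probe's own embryonic signal and the lowest signal called well above background on that array. With normexp background correction 0 genes of this list passed as higher, against 818 of all 13667 genes. A second Cdc7 probe was above background on no array.

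Of 42 tested mitotic genes from a list of 56, 13 were lower (31%) and 7 higher (16.7%), likewise near the whole-array shares, with a median of -1.01. The kinase gene Melk was at least 3.92-fold lower, the phosphatase gene Cdc25b, which activates Cdk1, lower at -2.32 with adult array 2 not well above background, and Smc2, a condensin subunit, at -2.12. Cenpi, of the inner kinetochore, was higher in adult spheres at 4.42 with embryonic array 2 not well above background, so the size is uncertain. Kif14, a motor of cytokinesis, was at least 1.66-fold higher. Kif2c, a motor that shortens microtubules, passed as higher on a probe that neither embryonic array detected, with 0.03 and 0.45 in adult spheres, so no size is given. Its other probe had -1.07 and -3.67 in adult spheres and -2.26 and -2.55 in embryonic spheres, where the groups overlap. Of 18 tested genes of the E2F and retinoblastoma network from a list of 22, 8 were lower (44.4%) and 1 higher (5.56%), with a median of -0.96. Rb1, the retinoblastoma gene itself, was lower at -2.19, Cdc25a, which activates Cdk2, at -2.03 with adult array 2 not well above background, and E2f8, a repressive E2F, was at least 3.43-fold lower. Rbl1, a relative of Rb1, passed as higher on a probe for transcript NM_001139516 that neither embryonic array detected, with 0.76 and 1.10 in adult spheres, so no size is given. Its probe for NM_011249 had -1.14 and -2.65 in adult and -1.09 and -1.96 in embryonic spheres. In these lists 3, 5 and 1 of the genes called higher were above background on neither embryonic array. Over all genes this held for 1720 of the 2393 called higher.

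The number of members called, like that over all genes, depended on the scaling and on the adult arrays. The median was below 0 for each of the 3 lists and also for all genes under all 16 alternatives run. When either adult array was left out, the members lost all their calls, and so did the whole array. Without adult array 1 the median difference was -1.43 for the members and -0.90 for all genes. Without adult array 2 it was -1.08 for the members and -0.67 for all genes. Rrm1, Ccnd1 and Ccnd2 passed under all 14 alternatives that kept both adult arrays. Centred on the median of all probes, where all genes had a median of -1.98, 17 of 18 mitotic genes passed as lower, against 71.9% of all genes. Where only genes above background on all 4 arrays were tested, 5 of 15 mitotic genes passed as lower, and of all 9626 genes so tested 56% passed as lower and 3.42% as higher.

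**Figure D5:**
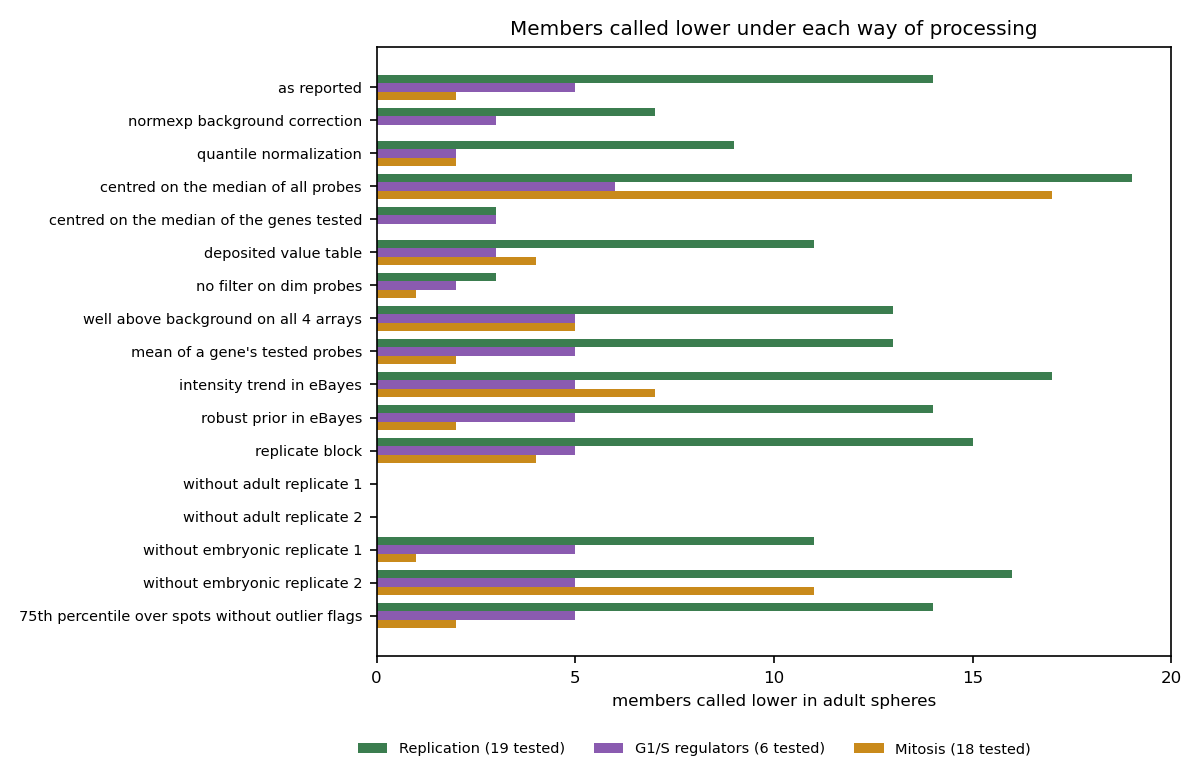
Number of members called lower in adult spheres (horizontal axis) under the reported processing and each of 16 alternatives, for 19 replication genes, 6 G1/S regulators and 18 mitotic genes tested as reported (some alternatives change how many are tested). The count is 0 without either adult array and is highest with centring on the median of all probes, at 19, 6 and 17.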

How the data were processed

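RNA of 2 adult and 2 embryonic thymosphere samples was measured on 4 Agilent 1-colour arrays, grouped by sample title. The deposited scanner files hold an intensity per spot; per the file headers it was extracted, background-subtracted and detrended with Agilent Feature Extraction 10.7.3.1. The deposited value table also holds intensity, on a linear scale with medians of 34.4 to 35.7; its normalization and centring were not given in the sources used here. It served as an alternative.

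Each processed signal was put on the log2 scale and the 75th percentile of its array was subtracted (132 and 66.0 on the adult arrays, 126.5 and 61.5 on the embryonic arrays). Control spots and spots marked as outliers were left out of the tests, and no spot was saturated. The percentile itself was taken with the outlier spots included. Of 55681 probes, 28026 (50.3%) were named through RefSeq accessions. A probe was tested if both arrays of at least 1 group read it well above background, with 1 probe a gene, those measured on all 4 arrays first and then the highest mean. Adult minus embryonic was fitted with limma 3.58.1 (lmFit, eBayes) in R 4.3.3, adjusted by Benjamini-Hochberg over 13667 genes with a threshold of 0.05, and was tested on simulated data.

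Values in every sample are given for 12 members chosen whatever their values (Mcm2, Pcna, Rrm2, Mki67, Top2a, Cdk1, Ccnb1, E2f1, Ccne1, Ccnd1, Ccnd2 and Ccnd3) and for up to 4 called members per list and direction by size of difference, and of the other pathway lists up to 3 genes. Nusap1 was described in full after its values were seen, as were the second probes. The members and lists were chosen with earlier results of these data known. Erythroid markers are not reported here. The alternatives tried were normexp background correction (offset 50, on median spot signals), quantile normalization, other centrings, the deposited table, other filters, probe averaging, eBayes options, a replicate block, leaving out each array, and, chosen after seeing the data, a 75th percentile without outlier spots.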

Additional observations from a re-analysis of the deposited data

How the results depend on the processing

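Counts of calls below are in either direction, and the reported counts are 7334 of all genes, 14 replication genes, 5 G1/S regulators and 2 mitotic genes. With normexp background correction they were 3347, 7, 3 and 0, and 2 mitotic genes had an unadjusted p under 0.05. With quantile normalization 4862 genes, 9 replication genes and 2 G1/S regulators were called. Centred on the median of the genes tested, 3825 genes, 3 replication genes, 3 G1/S regulators and 0 mitotic genes were called, with 1 mitotic gene at an unadjusted p under 0.05. Centred on the median of all probes, 11526 genes and 17 mitotic genes were called. With no filter on dim probes 2539 genes, 3 replication genes, 2 G1/S regulators and 1 mitotic gene were called. The deposited table gave 5518 of 13668 genes, 3 G1/S regulators and 5 of 18 mitotic genes, 1 of these 5 higher in adult spheres. A filter asking for signal on all 4 arrays gave 5722 of 9626 genes and 5 mitotic genes of 15 tested. An intensity trend in eBayes gave 8501 of 13667 genes and 8 of 18 mitotic genes, 1 of these 8 higher. The share of calls that were lower in adult spheres moved with these choices, with 2393 higher and 4941 lower as reported, 2778 and 1047 when centred on the genes tested, 1695 and 9831 when centred on all probes, 818 and 2529 with normexp, 1965 and 2897 with quantile normalization, and 1685 and 854 with no filter. The cause of these changes was not tested.

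Leaving out 1 array at a time, with the lone array of its group assumed to vary like the other group, gave 0 to 7572 calls over all genes, 0 to 16 in replication, 0 to 5 in G1/S and 0 to 11 in mitosis. The counts of 0 all came from leaving out an adult array, where 6471 or 5530 genes had an unadjusted p under 0.05. Same-numbered arrays did not deviate together after scaling (r = 0.070 over 13405 genes). With 2 arrays a group this cannot decide whether the numbers pair the samples or mark a shared batch. Before scaling, the 75th percentile was higher on array 1 than on array 2 in both groups (132 against 66.0 and 126.5 against 61.5). With a replicate block 7042 genes, 15 replication genes, 5 G1/S regulators and 4 mitotic genes were called. With the 75th percentile taken over spots without outlier marks, 6434 genes and 21 members were called, as many members as reported. Over all genes 3989 were then lower and 2445 higher, with a median of -0.65, and the median of the members was -1.09. On adult array 2 this percentile was 54.1 in place of 66.0. Signal over background limits 9 of the 52 members, which were not tested.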
